A study of Mus musculus with 6 samples.

Results

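The interferon response genes described here are 44 mouse genes of the interferon system, taken from a list of symbols. They comprise 2 receptor chains, 7 transcription factors, 4 nucleic acid sensors, the ISG15 system with 2 genes, 3 IFIT proteins, 6 OAS family members, 9 GTPases and 11 membrane proteins and other effectors. Each was found on the array by an exact match of the symbol to the gene name of a probe that was not a control. All 44 were present, with 60 probes, among 30214 gene names and 39429 probes in all. Of these, 42 genes with 56 probes passed the filter on dim probes and were tested, among 19006 genes tested. Oas3 was well above background on none of the 6 arrays. Ifi44 was well above background on 1 OGT_SCKO array and on no Ctrl array, and neither gene was tested.

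RNA came from the sciatic nerves of mice 1 month old. There were 3 pools of littermate controls (Ctrl) and 3 pools of OGT_SCKO mice. In the OGT_SCKO mice Ogt, which encodes O-GlcNAc transferase, is deleted in Schwann cells, the myelinating glia of peripheral nerve. The labels give the background of both groups as C56 BL6. The Cre driver and the number of animals in a pool are not given in the sources used here. The pools are described as independent, so p-values measure the spread between pools, and a pool hides the differences between its animals. Each pool was hybridised to 1 single-colour (Cy5) array. Ctrl 2 lay on the same slide as the 3 OGT_SCKO pools, and Ctrl 1 and Ctrl 3 lay on another. In whole nerve, fewer cells of a type and less RNA per cell cannot be told apart.

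Ogt was lower in every pool labelled OGT_SCKO. Its level, as log2 signal relative to the 75th percentile of the array, was at 0.46, 0.35 and 0.11 in the Ctrl pools and at -0.89, -1.01 and -1.01 in the OGT_SCKO pools, a fall to 41.3% of Ctrl (limma, adjusted p = 0.0011), and a second probe fell to 50.5%. All 9 Schwann cell markers passed the filter on dim probes, and all 9 differences were negative, with a median of -0.41. Prx and S100b fell by 0.53 and 0.67, and Sox10 differed by -0.27 without passing. All 4 tested skeletal muscle markers and 4 of 5 adipocyte markers were lower in OGT_SCKO pools, the latter with a median of -2.61. The adipocyte markers Adipoq, Cidec and Retn were kept by the filter on dim probes through the Ctrl pools alone.

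Type I interferons bind the receptor chains encoded by Ifnar1 and Ifnar2, and the kinases TYK2 and JAK1 then activate STAT2. STAT2 joins IRF9 in a complex that binds the interferon-stimulated response element, a DNA sequence in the promoters of the antiviral genes. Interferon gamma acts through other receptor chains and the gamma-activated site, another promoter sequence, and strongly induces IRF1 and the guanylate-binding and immunity-related GTPases. Nucleic acid sensors such as RIG-I and MDA5 start the production of interferon and are interferon-induced themselves.

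As a description, the promoters of the members were read from RefSeq (build GRCm38.p6). A promoter was available for 31 of the 44 members. The core of the interferon-stimulated response element, here GAAA followed by any 2 bases and again GAAA, was searched on both strands in the 250 bases before the start of transcription. It was present in 13 of the 31 members (41.9%) and in 936 of 27025 genes (3.46%). The letters TTCNNNGAA, the core of the gamma-activated site, which read the same on both strands, were present in 9 of the 31 (29%) and in 2197 of 27025 genes (8.13%). Matches of the 2 motifs overlapped each other once among the members and 18 times among all promoters. A match is a description of the letters and was not tested as a binding site. Of the 3 members that passed the test below and had a promoter, Stat2 held the response element core in this window, and Ddx58 and Xaf1 did not. The stretches below were chosen among members that hold a match, and show the matches in capitals, and adjoining capitals are matches that overlap. In the first 7 the capitals mark the response element core on either strand, and in Irf1 they mark TTCNNNGAA.
Stat2 (chr10:128270248-128270320, + strand): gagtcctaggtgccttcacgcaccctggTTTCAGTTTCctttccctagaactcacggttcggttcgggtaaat
Ifit1 (chr19:34640750-34640848, + strand): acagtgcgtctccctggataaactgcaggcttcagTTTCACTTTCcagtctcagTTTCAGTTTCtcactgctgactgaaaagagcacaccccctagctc
Ifit3 (chr19:34583338-34583451, + strand): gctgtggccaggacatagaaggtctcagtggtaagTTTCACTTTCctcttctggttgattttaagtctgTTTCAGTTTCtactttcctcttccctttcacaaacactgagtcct
Isg15 (chr4:156200840-156200931, - strand): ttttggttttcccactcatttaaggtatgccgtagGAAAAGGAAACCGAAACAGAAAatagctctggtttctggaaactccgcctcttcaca
Gbp3 (chr3:142559964-142560043, + strand): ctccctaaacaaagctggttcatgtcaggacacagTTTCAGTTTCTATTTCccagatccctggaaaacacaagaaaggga
Igtp (chr11:58199487-58199555, + strand): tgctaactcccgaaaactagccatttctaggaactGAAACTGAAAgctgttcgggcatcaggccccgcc
Irgm1 (chr11:48871421-48871485, - strand): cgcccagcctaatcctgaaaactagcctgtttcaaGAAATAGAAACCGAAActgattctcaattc
Irf1 (chr11:53769889-53769967, + strand): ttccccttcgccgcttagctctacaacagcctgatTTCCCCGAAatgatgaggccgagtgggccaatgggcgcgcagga

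In Stat2 the single match lay 213 to 222 bases before the start, and in Igtp 25 to 34 bases before it. Ifit1 and Ifit3 each had 2 separate matches. Isg15 held 3 overlapping matches between 57 and 78 bases before the start, and Gbp3 and Irgm1 each held 2 overlapping ones. The match of Irf1 lay 82 to 90 bases before the start. RefSeq promoters were not matched for Parp14, Oas2, Iigp1, Mx2, Gbp6, Oas1b, Dhx58, Ifi27, Zbp1, Rtp4, Mx1, Gbp4 and Usp18.

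The comparison of OGT_SCKO with Ctrl pools asked which members differed in nerves whose Schwann cells lacked Ogt. Of the 42 tested members, 7 were higher in OGT_SCKO pools, none was lower and 35 did not pass the test (limma, Benjamini-Hochberg adjusted p under 0.05 over all genes tested). The 7 were Parp14, Usp18, Dhx58, Oas2, Stat2, Xaf1 and Ddx58. Of all genes, 23.3% passed in either direction, so the members' share of 16.7% was below that of all genes. In the upward direction 11.1% of all genes passed and in the downward direction 12.1%. The median log2 fold change of the members was 0.20, against -0.08 over all genes, and it was positive in 32 members and negative in 10. Every OGT_SCKO pool lay above every Ctrl pool in 11 members, and in 20.3% of all genes. No member lay with every OGT_SCKO pool below every Ctrl pool, as 25.4% of all genes did. With 3 pools against 3, an exact two-sided permutation test of 1 gene cannot give a p below 0.1, so the calls rest on the spread that limma shares between genes.

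**Figure D1:**
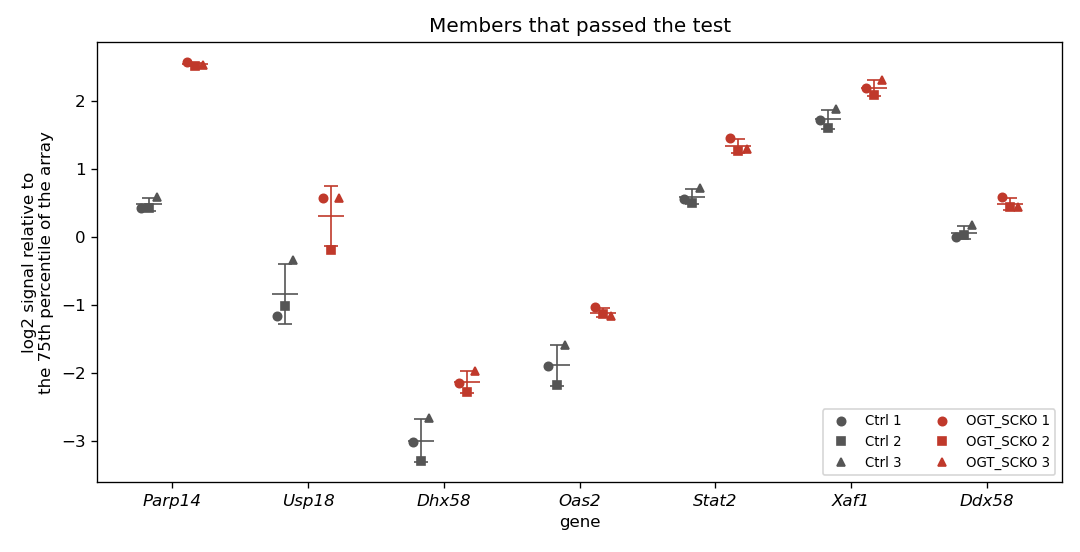
Levels of the 7 members that passed the test, as log2 signal relative to the 75th percentile of each array (y axis), by gene (x axis). Points are single pools, horizontal bars the mean of 3 pools and vertical bars 1 SD. Every OGT_SCKO pool lies above every Ctrl pool in each of the 7 genes, with the widest gap in Parp14, and levels of different genes are not comparable because each has its own probe.

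Levels are given on that scale, so 0 is that percentile itself, and they are compared only within a probe. Parp14, a poly(ADP-ribose) polymerase family member with an antiviral role, had the largest change of the members. Its probe lies at chr16:35832992-35833051 (build mm9, as are all probe positions). Its level was 0.43, 0.43 and 0.60 in Ctrl 1, 2 and 3, and 2.58, 2.52 and 2.54 in OGT_SCKO 1, 2 and 3. All 3 OGT_SCKO pools were close together and far above the Ctrl pools. The difference was 2.06 ± 0.10 (SE) on the log2 scale, or 4.17-fold, with an adjusted p of 0.00018. It passed the test under each of the 18 alternative settings, with values from 1.92 to 2.12.

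The receptor chains changed little. Ifnar1 was at 0.33, 0.43 and 0.43 in the Ctrl pools and at 0.48, 0.51 and 0.59 in the OGT_SCKO pools, a difference of 0.13 ± 0.10 (SE) with an adjusted p of 0.36. The groups did not overlap, but the gap was narrow, and the other 2 probes of Ifnar1 gave differences of 0.09 and 0.13. Ifnar2 differed by 0.14 ± 0.11, with an adjusted p of 0.35.

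Among the transcription factors, Stat2 passed the test. STAT2 is part of the complex that type I interferon activates. Its level, at chr10:127729834-127729893, was 0.56, 0.51 and 0.72 in the Ctrl pools and 1.47, 1.27 and 1.29 in the OGT_SCKO pools. The groups were separate, by 0.75 ± 0.11 (SE) or 1.68-fold (limma, adjusted p = 0.0061). Irf8, a factor of myeloid cells, and Irf2, an antagonist of IRF1, were also higher in every OGT_SCKO pool than in any Ctrl pool, by 0.45 and 0.22, but did not pass the test (adjusted p = 0.077 and 0.24). Irf5, a factor downstream of Toll-like receptors, and Irf9, the DNA-binding partner of STAT2, differed by 0.03 and -0.04. Irf1 was at -0.06, -0.07 and 0.62 in the Ctrl pools and at 0.34, 0.42 and 0.30 in the OGT_SCKO pools, so Ctrl 3 was higher than all the others. Irf7, the factor that amplifies interferon production, stood at -2.06, -2.22 and -0.97 in the Ctrl pools and between -1.74 and -1.21 in the OGT_SCKO pools. Here too Ctrl 3 was the highest pool, and neither gene passed the test (adjusted p = 0.50 for Irf1 and 0.60 for Irf7).

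Of the 4 nucleic acid sensors, Dhx58 and Ddx58 were higher. Ddx58 encodes RIG-I, a sensor of viral RNA, and Dhx58 encodes LGP2, a regulator of the same family. Dhx58, at chr11:100556271-100556330, was at -3.01, -3.30 and -2.67 in the Ctrl pools and at -2.15, -2.28 and -1.97 in the OGT_SCKO pools, a difference of 0.86 ± 0.18 (SE), or 1.82-fold (limma, adjusted p = 0.019). Ddx58, at chr4:40151893-40151952, was at -0.0038, 0.026 and 0.18 in the Ctrl pools and at 0.59, 0.44 and 0.44 in the OGT_SCKO pools, a difference of 0.42 ± 0.11, or 1.34-fold (adjusted p = 0.034). In both genes the pools of the 2 groups did not overlap. A second Ddx58 probe, at chr4:40151133-40151192, did not rise well above background in any Ctrl pool, and its signal in OGT_SCKO pools was higher by at least 1.58-fold. That bound sets the mean of the bright group against the higher, on each dim array, of the lowest signal well above background and the probe's own signal. This probe passed the filter on dim probes through the OGT_SCKO pools alone, so its test is not counted as support. Ifih1, which encodes the RNA sensor MDA5, differed by 0.13 ± 0.15 (adjusted p = 0.53).

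Zbp1, a sensor of nucleic acids in the Z form that can start cell death, varied between the pools of each group. It was at -1.34, -1.13 and -0.46 in the Ctrl pools and at 0.16, -0.90 and -0.03 in the OGT_SCKO pools. OGT_SCKO 2 lay below Ctrl 3, and the difference of 0.72 ± 0.34 (SE) did not pass (limma, adjusted p = 0.17). A second probe differed by 0.87 and did not pass either (adjusted p = 0.11).

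Of the 2 genes of the ISG15 system, Usp18 passed the test and Isg15 did not. Isg15 encodes a ubiquitin-like protein that is attached to other proteins, and Usp18 encodes the protease that removes it and that also restrains the receptor. Usp18, at chr6:121220874-121220933, was at -1.16, -1.02 and -0.34 in the Ctrl pools and at 0.57, -0.19 and 0.57 in the OGT_SCKO pools. The groups did not overlap, and the difference was 1.16 ± 0.29 (SE), or 2.23-fold (limma, adjusted p = 0.034). Ctrl 3 and OGT_SCKO 2 were close to each other. Isg15 was at 2.58, 2.67 and 3.58 in the Ctrl pools and at 2.91, 2.20 and 2.90 in the OGT_SCKO pools, a difference of -0.27 ± 0.32 (adjusted p = 0.56), which became 0.04 without Ctrl 3. Ctrl 3 was the highest pool and OGT_SCKO 2 the lowest, on both probes of Isg15.

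None of the 3 IFIT genes, whose proteins bind foreign RNA, passed the test. Ifit1 was at -3.58, -4.19 and -2.39 in the Ctrl pools and at -2.32, -2.46 and -2.29 in the OGT_SCKO pools. The 3 OGT_SCKO pools were spread by 0.09 (SD), while Ctrl 3 lay among them and far above the other Ctrl pools. The difference of 1.03 ± 0.42 (SE), or 2.04-fold, had an adjusted p of 0.12. Ifit2 and Ifit3 differed by 0.20 and 0.15 (adjusted p = 0.49 and 0.67). Ifit3 has a near-identical copy, and its probe may read both.

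Active members of the OAS family make a second messenger that activates an RNA-degrading enzyme. Oas2, at chr5:121180343-121180402, was at -1.90, -2.18 and -1.59 in the Ctrl pools and at -1.03, -1.14 and -1.17 in the OGT_SCKO pools. The groups did not overlap, and the difference was 0.78 ± 0.16 (SE), or 1.71-fold (limma, adjusted p = 0.019). The OAS-like genes Oasl1 and Oasl2 and Oas1a differed by 0.79, 0.57 and 0.52, with adjusted p of 0.14, 0.15 and 0.18. In each of these 3 genes Ctrl 3 was the highest Ctrl pool and overlapped the OGT_SCKO pools. On a second Oas1a probe the groups did not overlap, and the difference of 0.60 did not pass either (limma, adjusted p = 0.11). Oasl1 was well above background on 2 of the 3 Ctrl arrays, and so was kept by the filter on dim probes through the OGT_SCKO pools alone. Oas1b differed by -0.09, and near-identical copies of the Oas1 genes may share probes.

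None of the 9 GTPases passed the test. The guanylate-binding proteins and the immunity-related GTPases act on the membranes around intracellular pathogens. Mx1 and Mx2 belong to a family with antiviral members. Gbp3 was at 0.04, -0.14 and 0.82 in the Ctrl pools and at 1.00, 0.89 and 1.03 in the OGT_SCKO pools. The groups did not overlap, but Ctrl 3 lay close under the OGT_SCKO pools, and the difference of 0.74 ± 0.25 (SE) had an adjusted p of 0.077. Mx2 and Mx1 differed by 0.65 and 0.99 (limma, adjusted p = 0.098 and 0.16). Mx1 was well above background on 2 of the 3 Ctrl arrays, and so was kept through the OGT_SCKO pools alone. Igtp was at 0.43, 0.57 and 1.83 in the Ctrl pools and at 1.02, 0.76 and 0.98 in the OGT_SCKO pools. Irgm1 was at -0.91, -0.79 and 0.45 in the Ctrl pools and at -0.30, -0.31 and -0.31 in the OGT_SCKO pools. In both, Ctrl 3 was far above the OGT_SCKO pools and Ctrl 1 and Ctrl 2 were below them, so that the group means differed by -0.02 and 0.11 (adjusted p = 0.97 and 0.84). In Gbp2, Gbp4, Gbp6 and Iigp1, Ctrl 3 was likewise above all 3 OGT_SCKO pools, by a small margin in Gbp4. Members of the Gbp and Iigp families are similar in sequence, and their probes may share signal.

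Of the 10 tested membrane proteins and other effectors, Parp14 and Xaf1 passed. Xaf1, which encodes a partner of the apoptosis inhibitor XIAP, at chr11:72122169-72122228, was at 1.72, 1.61 and 1.89 in the Ctrl pools and at 2.20, 2.09 and 2.31 in the OGT_SCKO pools. The groups did not overlap and differed by 0.46 ± 0.12 (SE), or 1.37-fold (limma, adjusted p = 0.038), while a second Xaf1 probe gave 0.39 with an adjusted p of 0.12. Rtp4, a chaperone of receptors, Ifi35 and Rsad2, which encodes the antiviral enzyme viperin, differed by 0.48, 0.18 and 0.16 and did not pass. Bst2, which encodes the virus tether tetherin, Ifi27, the genes Ifitm3 and Ifitm1, whose proteins hinder virus entry, and the nuclease gene Isg20 differed by -0.06, -0.06, -0.01, 0.06 and -0.12. Ifitm family members are similar in sequence, and their probes may share signal.

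**Figure D2:**
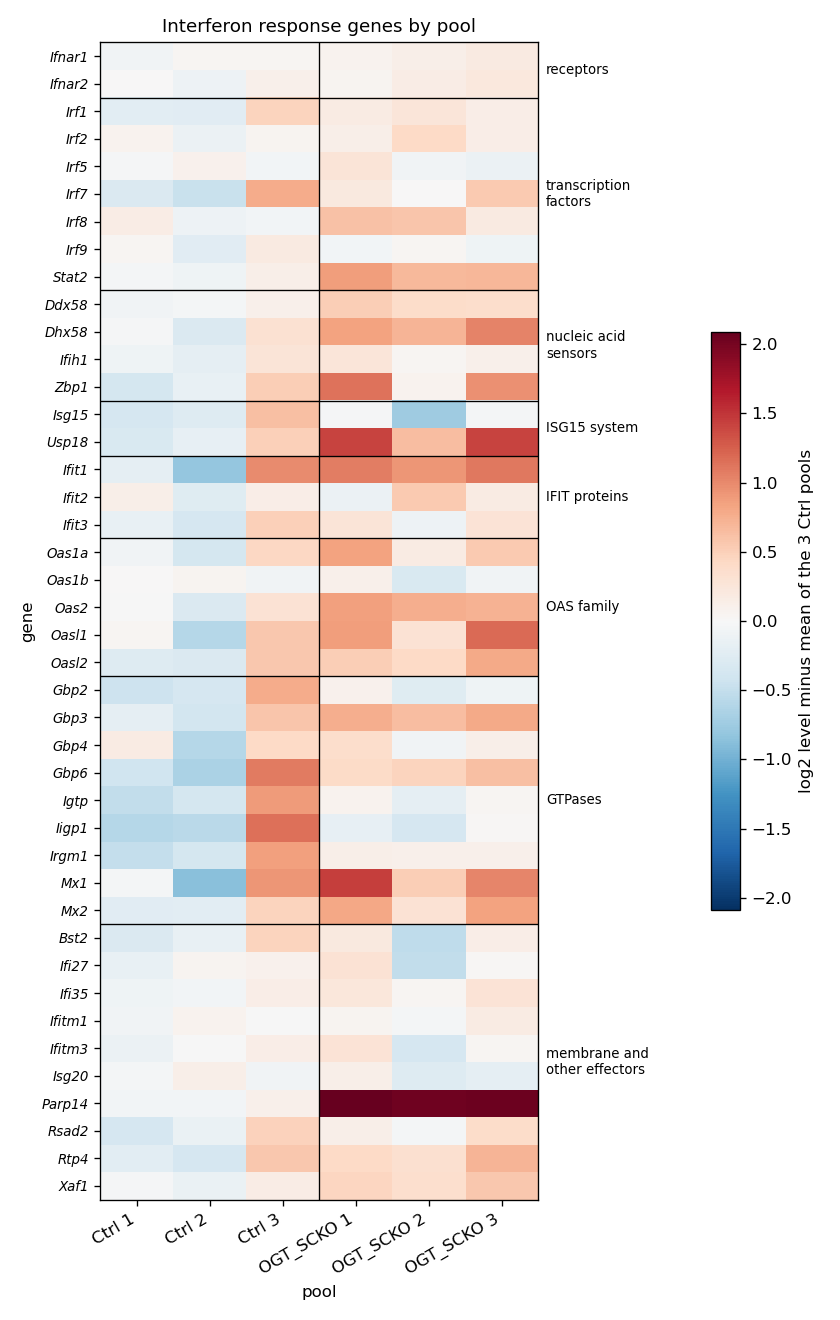
Level of each of the 42 tested members (rows, grouped by role) in each pool (columns), as log2 level minus the mean of the 3 Ctrl pools, red for higher and blue for lower. The Ctrl 3 column is red in most rows and most strongly in the GTPases, and Parp14 is strongly red in all 3 OGT_SCKO pools.

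The Ctrl pools were not alike in these genes. Ctrl 3 was the highest Ctrl pool in 36 of 42 members (85.7%), against 23.6% of all genes with a value on every array. This pool was singled out after its values were seen, and its levels are given as a description with no test. Ctrl 3 exceeded the mean of Ctrl 1 and Ctrl 2 by over 0.5 on the log2 scale in 22 of 42 members (52.4%), against 1.62% of all genes. The median excess was 0.64 in the members and -0.02 over all genes. Among the 100 genes with the greatest excess in Ctrl 3, 13 were members. No member exceeded the mean of the other Ctrl pools by over 0.5 in Ctrl 1 or in Ctrl 2, against 2.32% and 6.31% of all genes. Ctrl 1 lay on the same slide as Ctrl 3, and its median excess in the members was -0.13. The mean that Ctrl 1 or Ctrl 2 is set against includes Ctrl 3, so a high Ctrl 3 lowers their excess by construction. The part of the slide in the levels of Ctrl 3 was not tested.

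All 9 GTPases exceeded 0.5, with Iigp1 at 1.74 (3.33-fold), Gbp6 at 1.62, Mx1 at 1.38, Igtp at 1.33, Irgm1 at 1.30 and Gbp2 at 1.17. On second probes of Iigp1, Irgm1 and Gbp6, Ctrl 3 was also the highest of the 6 pools. Ifit1 exceeded by 1.49, Irf7 by 1.17 and Isg15 by 0.95. In the 7 members that passed the test the excess ran from 0.17 in Ddx58 and Parp14 to 0.75 in Usp18. The test itself favours a small excess, since a high Ctrl 3 widens the Ctrl spread and raises the Ctrl mean. Ctrl 3 was higher than all 3 OGT_SCKO pools in 14 of 42 members, a share like that of all genes (6557 of 18999). The excess was small in the receptors, at 0.05 in Ifnar1 and 0.15 in Ifnar2, and below 0 in Isg20, Oas1b, Irf5, Irf8 and Ifitm1.

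Taking the members' median per pool against the Ctrl mean gives -0.08 in Ctrl 1, -0.23 in Ctrl 2 and 0.43 in Ctrl 3, and 0.28, 0.13 and 0.25 in OGT_SCKO 1, 2 and 3. Over all genes the same medians ran from -0.02 to 0.02 in the Ctrl pools and from -0.15 to 0.01 in the OGT_SCKO pools. The median SD of the members was 0.40 among Ctrl pools and 0.19 among OGT_SCKO pools, whereas over all genes it was 0.14 and 0.21. Among the OGT_SCKO pools, OGT_SCKO 2 was the lowest in 31 of 42 members (73.8%), against 51.7% of all genes. Its array was the brightest, with a 75th percentile of 6136.

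**Figure D3:**
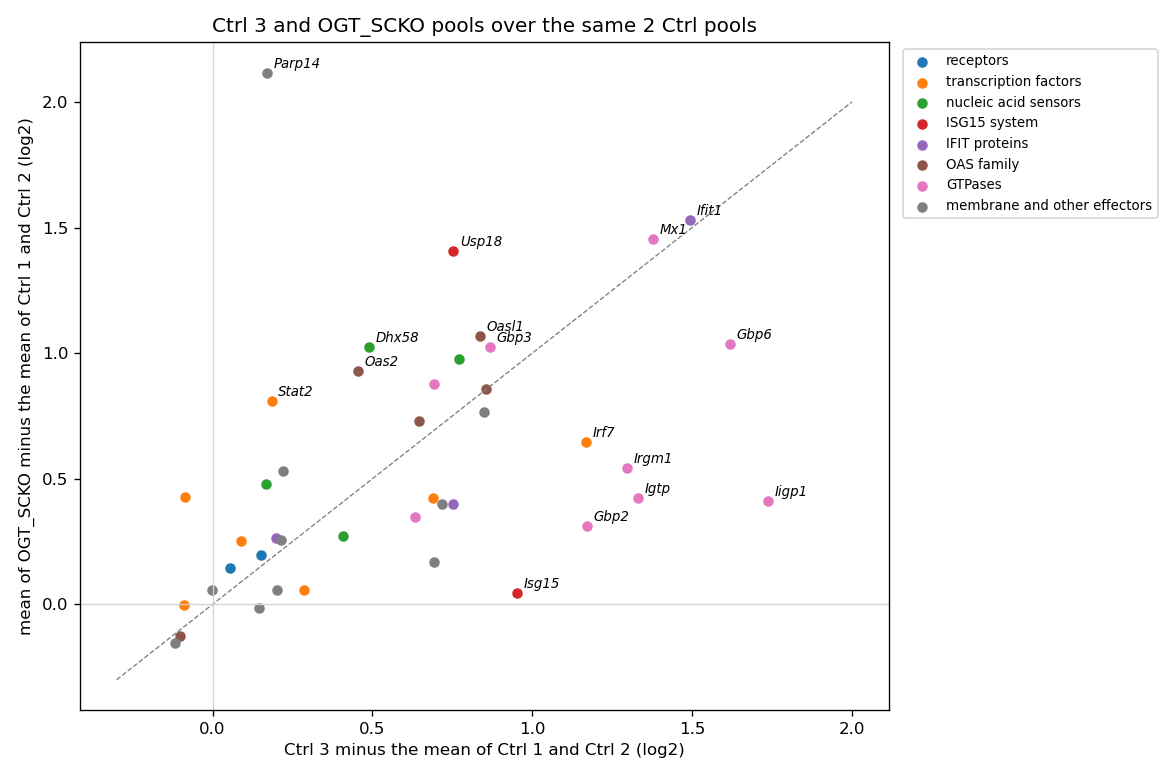
Each of the 42 tested members by its excess in Ctrl 3 (x axis) and in the mean of the 3 OGT_SCKO pools (y axis), both over the mean of Ctrl 1 and Ctrl 2 on the log2 scale, coloured by role. The dashed line marks equal excess. Parp14 (2.12), Usp18 and Stat2 lie well above it and Iigp1, Igtp, Gbp2 and Isg15 well below it. The axes share the same 2 Ctrl pools, so a common tilt of the points is built in.

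Motif counts are given here for members with a RefSeq promoter on either side of that excess of 0.5. Of 14 members with a promoter and an excess in Ctrl 3 over 0.5, 10 held the response element core in the 250 bases before the start. Of 15 with a promoter and a smaller excess, 2 held it, Stat2 and Irf2. The first set held Ifit1, Ifit3, Isg15, Gbp3, Igtp and Irgm1, whose stretches are printed above. TTCNNNGAA was present in 4 of the 14 and in 5 of the 15. These sets were made after the levels were seen and carry no test. With the 50 bases after the start included, the response element core was present in 10 of the 14 and in 5 of the 15.

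The number of members that passed depended on single pools. Without Ctrl 3, 12 members were higher and none was lower, against 5.81% of all genes higher and 11% in either direction. Gbp3, Gbp6, Ifit1, Irgm1, Mx2, Oasl2 and Rtp4 passed in addition, and Ddx58 and Xaf1 no longer passed (limma, adjusted p = 0.073 and 0.067). On the second Gbp6 probe, Ctrl 1 (-4.01) was above every OGT_SCKO pool and Ctrl 2 (-5.21) was below them. On the second Irgm1 probe, Ctrl 1 and Ctrl 2 were both below every OGT_SCKO pool. Without Ctrl 3, Ifit1 differed by 1.53 ± 0.21 (SE), or 2.89-fold, Gbp3 by 1.02 ± 0.14 and Gbp6 by 1.04 ± 0.15. Ctrl 3 was singled out after it was seen to be high in these members. Leaving it out lowers their Ctrl mean and Ctrl spread, so the added passes are no separate support. The differences of Parp14 and Stat2 moved little, to 2.12 and 0.81. Without Ctrl 1 or without OGT_SCKO 3, only 2 members, Parp14 and Stat2, passed, with 12.8% and 10.3% of all genes passing. Without Ctrl 2 and without OGT_SCKO 1, 4 passed, with 13.4% and 29.5% of all genes, and without OGT_SCKO 2, 8 passed, with 21.3% of all genes and Zbp1 in addition.

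**Figure D4:**
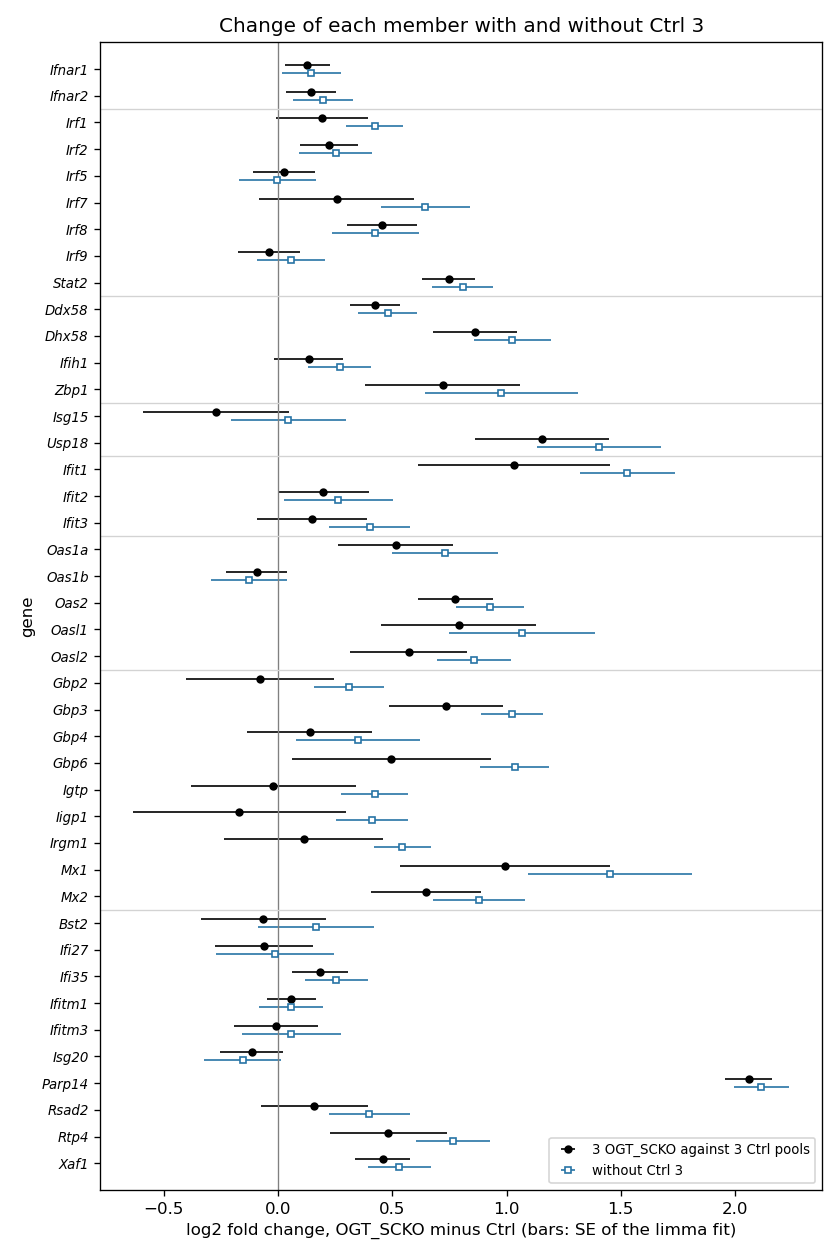
Log2 fold change of OGT_SCKO against Ctrl (x axis) for each of the 42 tested members (y axis), with all pools (filled points) and without Ctrl 3 (open squares), and bars of 1 SE of the limma fit. Bars of the GTPases are wide with all pools and the values move right without Ctrl 3, as for Igtp (-0.02 to 0.42), while Parp14 hardly moves.

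Slide and group were partly confounded, because Ctrl 2 was the single Ctrl pool on the slide of the OGT_SCKO pools. With slide as a fixed block, which sets the OGT_SCKO pools against Ctrl 2 alone, 3 members passed (Parp14, Dhx58 and Oas2), and 6.41% of all genes did. The values were 2.11 in Parp14, 1.17 in Dhx58 and 1.07 in Oas2. Stat2 was at 0.83 with an adjusted p of 0.051, and Usp18, Ddx58 and Xaf1 at 1.33, 0.46 and 0.59 with adjusted p of 0.13, 0.16 and 0.11. Using the arrays of that slide alone, Parp14 and Ifit1 passed, with 2.09% of all genes. The lone Ctrl pool is then assumed to vary like the OGT_SCKO pools. With slide as a random block the 7 members all passed, as did 27.4% of all genes. The correlation within slides in that fit was -0.14, so it made no allowance for arrays of a slide being alike. It lowered SEs, as in Usp18 from 0.29 to 0.27, so these passes do not show that the calls are free of a slide effect.

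Beyond the members, 144 of 157 other listed interferon pathway genes were on the array and 117 were tested. Of these, 15 were higher and 4 lower, a share of 16.2% against 23.3% of all genes, with a median of 0.06. Cxcl10, a chemokine that attracts T cells, was at -2.88, -2.87 and -1.14 in the Ctrl pools and at 0.18, 0.75 and 0.33 in the OGT_SCKO pools, a difference of 2.72 ± 0.48 (SE), or 6.57-fold (limma, adjusted p = 0.0098). Ctrl 3 was the highest Ctrl pool, and the groups did not overlap. The antiviral kinase gene Eif2ak2, the DNA sensor gene Mb21d1, the nucleotide hydrolase gene Samhd1, and the antigen-processing genes Psmb9 and Tap2 rose by 0.94, 0.71, 0.73, 0.91 and 0.78. Il10rb, Traf3, Ifi203, Parp12, Lgals9 and Pnpt1 also passed, with differences of 0.41 to 0.85. Ifnlr1, a receptor chain of type III interferon, was not well above background in any Ctrl pool and was at least 2.15-fold higher. Oas1c was at least 1.25-fold higher on the same kind of bound. Both were kept by the filter on dim probes through the OGT_SCKO pools alone, so their calls are not counted as support. With slide as a fixed block, 7 of the 117 were higher and none was lower, against 6.41% of all genes in either direction. Of the 15 higher genes, Mb21d1, Samhd1, Psmb9, Tap2, Il10rb, Traf3, Parp12, Lgals9 and Pnpt1 then no longer passed, with adjusted p of 0.066 to 0.18, while Cxcl10 and Eif2ak2 did (adjusted p = 0.042 and 0.023).

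Of the genes that act upstream of the response, Irf3, a factor that induces interferon, and Mavs, the adaptor of the RNA sensors, fell by 0.77 and 0.64 on the log2 scale (limma, adjusted p = 0.019 and 0.018). Jak1, Tyk2, Ifngr1 and Ifngr2 differed by -0.24, -0.25, -0.10 and -0.22 and did not pass. Ifna1 and Ifna2 fell by 0.82 and 0.91 (adjusted p = 0.024 and 0.049), but the alpha interferon genes are near-identical and their probes may share signal. With slide as a fixed block none of these 4 falls passed. Irf3 was then at -0.93, Mavs at -0.55, Ifna1 at -0.50 and Ifna2 at -1.02 (limma, adjusted p = 0.078, 0.16, 0.21 and 0.18). None of them passed without Ctrl 1 or without OGT_SCKO 3 either, with adjusted p of 0.064 to 0.13. Ifnb1 and Ifng were well above background on none of the 6 arrays.

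The excess in Ctrl 3 was also present in other pathway genes, 24 of 117 (20.5%) being over 0.5. Irgm2, Ifi47 and Cxcl9, named here after their values were seen, showed it. Irgm2 was at -0.08, -0.27 and 0.86 in the Ctrl pools, and Ifi47 at 0.05, -0.09 and 0.97. Cxcl9, a chemokine induced by interferon gamma, was at -4.01, -2.64 and -0.82.

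Markers of other cells were read beside these results. Of 17 tested macrophage markers, Cx3cr1 alone passed, higher by 1.05, and the list's median per pool ran from -0.07 to 0.11 in the Ctrl pools and from -0.06 to 0.11 in the OGT_SCKO pools. The list split into 8 positive and 9 negative differences, and Cd68, Csf1r and Emr1 differed by 0.01, -0.31 and 0.21. Without passing, Lyz2, Mertk, Aif1 and Emr1 were higher in every OGT_SCKO pool than in any Ctrl pool, by 0.70, 0.50, 0.47 and 0.21. Cd163 and Cd14 were lower in every one, at -0.42 and -0.36, also without passing. With Cx3cr1, 5 of the 17 lay above and 2 below in this way, against 20.3% and 25.4% of all genes. The 8 tested T and NK cell markers split into 4 positive and 4 negative. Klrd1 passed, being not well above background in any Ctrl pool and at least 2.17-fold higher in OGT_SCKO pools. It was kept by the filter on dim probes through the OGT_SCKO pools alone, so its pass is not counted as support. Cd3d, Lck and Gzma were higher in every OGT_SCKO pool than in any Ctrl pool, by 1.33, 0.90 and 1.36. Cd3d and Lck were also kept through the OGT_SCKO pools alone, so their separation is not counted as support. Cd3e, Cd4, Nkg7 and Prf1 differed by -0.63, -0.62, -0.46 and -0.46, and all 7 of these genes did not pass. Of 6 neutrophil markers, Retnlg passed, at least 6.96-fold higher on the same kind of bound. Retnlg, S100a8 and S100a9 too were kept through the OGT_SCKO pools alone. S100a8, S100a9, Ly6g, Csf3r and Mpo differed by 0.03, 0.37, 0.03, 0.07 and -0.30. The general leukocyte markers Ptprc, Coro1a and Laptm5 differed by 0.27, 0.29 and 0.80 and did not pass, the last without overlap of the groups. All 6 plasmacytoid dendritic cell markers had negative differences, with a median of -0.42, and Siglech differed by -0.25. Klk1 alone passed, with signal near background, and was kept by the filter on dim probes through the Ctrl pools alone. None of 4 B cell, 7 endothelial, 6 fibroblast or 3 perineurial markers tested passed. Their differences were mostly negative, in 3, 6, 5 and 3 markers. The list medians were -0.41, -0.23, -0.51 and -0.29, against -0.08 over all genes. Of 6 mural cell markers, Pdgfrb was higher by 0.69 and the other 5 had negative differences that did not pass, with Acta2 at -0.94 and a list median of -0.20. The part of these cells in the members' changes was not tested.

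In Ctrl 3, beside its excess in the members, the medians of the macrophage, T and NK cell, neutrophil and general leukocyte lists were -0.07, -0.12, -0.34 and -0.18, below those of the other Ctrl pools. The skeletal muscle median was 0.35 in Ctrl 3, against -0.07 in Ctrl 1 and -0.20 in Ctrl 2. The adipocyte median was 0.56 in Ctrl 3 and 0.69 in Ctrl 2, against -1.23 in Ctrl 1. The part of these differences in the excess of Ctrl 3 was not tested.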

How the data were processed

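The array values are spot intensity values that the authors deposited, made with Agilent Feature Extraction 11.5.1.1 per the submitters' processing notes and file headers, which record background subtraction, detrending and surrogates for low spots. Other flags per spot (above background, saturated, outlier) are in the same files, per the file headers. The authors' deposited log2 table, whose columns share 1 distribution (median 9.13), served as an alternative, and its making is otherwise not given in the sources used here.

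Log2 processed signal minus each array's 75th percentile over 43020 spots was used. Outlier spots were left out, and spots of a probe averaged. A probe was kept if every array of Ctrl, of OGT_SCKO or of both had it well above background, and a gene was represented by its kept probe with the highest mean. Between 58.9% and 65.2% of probes were well above background, no spot was saturated, and the 75th percentile ran from 2749 (Ctrl 2) to 6136 (OGT_SCKO 2). Precision is limited by the number of arrays. No member probe lost an array. OGT_SCKO was compared with Ctrl over 19006 genes with limma 3.58.1 (R 4.3.3; lmFit, eBayes, Benjamini-Hochberg, adjusted p under 0.05), tested on simulated data first. Probe rows were tested in a fit over all kept probes, with adjustment over those. All members are named; of the other pathway genes and markers, those that passed and a few listed ones, except some not reported here. The members and lists were chosen with earlier results of these data known. Alternatives covered scaling, normexp background (offset 50), filters, probe choice, slide, replicate block, variance model and leaving out each array.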

Additional observations from a re-analysis of the deposited data

How the results depend on the processing

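Against 7 members, 19 other pathway genes and 4421 of all genes passing, normexp background gave 4 members and 2716 of all genes. Without a filter on dim probes the counts were 3, 6 and 2618. Slide as a fixed block gave 3, 7 and 1218, and slide 1 alone 2, 4 and 398, with a members' median of 0.48 in both, and an Ogt change of -1.32 on slide 1 alone (limma, adjusted p = 0.054). Leaving out 1 pool gave 2 to 12 members, 4 to 27 other pathway genes, 1962 to 5609 of all genes and members' medians of 0.12 (without Ctrl 2) to 0.42 (without Ctrl 3). The lowest counts were without OGT_SCKO 3, and 2 members also passed without Ctrl 1. The 12 members were without Ctrl 3, and the 27 and 5609 without OGT_SCKO 1. Without Ctrl 1 or Ctrl 2, all genes gave 2430 and 2546, and without Ctrl 3 2089.

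With the replicate block, 3 members (Parp14, Dhx58 and Oasl1), 3 other pathway genes and 1464 of all genes passed. Oasl1 was kept by the filter on dim probes through the OGT_SCKO pools alone, so its pass is not counted as support. Same-numbered pools did not deviate together (correlations of -0.27, -0.53 and 0.06), so the numbers were not taken as pairs.

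Quantile and median scaling, the deposited values, the other variance model and the filter on all 6 arrays left the 7 members called. Slide as a random block, with its correlation of -0.14, did too, and the mean of a gene's probes lost Xaf1. Of 18 alternatives, Parp14 passed in 18, Stat2 and Dhx58 in 15, Oas2 in 13, Usp18 in 9, Ddx58 in 8 and Xaf1 in 7. No value of a member that passed changed sign in any of them. The median of all genes moved to -0.01 under quantile scaling and to -0.02 under median scaling, where 35 members were positive. The causes of these differences were not tested. Signal near background limits Oasl1, Mx1 and the second Ddx58 probe.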
